A study of Mus musculus with 12 samples.

Results

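Gsn, Clu, Txnip, H1f0 and Tubb3 are genes known to respond to inhibitors of histone deacetylases (HDACs) in several cell types. They were chosen by symbol, with earlier results of these data known. All 5 had a row among the 23366 gene symbols of each of the 3 deposited tables. Their reads were counted in 12 RNA-seq libraries made after removal of ribosomal RNA from mouse Beko cells, a pre-T cell type. Developing T cells at this stage rely on Notch. In the apicidin experiment, cells received 0.01 µg/ml apicidin, an HDAC inhibitor, or DMSO for 24 h. In the hairpin experiment, an infected plasmid gave cells a hairpin that targets Hdac3 (shHdac3) or, as control, a scrambled one, with RNA labelled as 96 h after puromycin. Both shHdac3 libraries carry the same hairpin name in the labels, so the knockdown rests on 1 hairpin. In the third experiment, cells received 10 µg/ml DAPT, an inhibitor of the γ-secretase that releases the Notch intracellular domain, or DMSO for 24 h. Each of the 6 groups had 2 libraries, and the 2 DMSO groups are separate. The labels do not say whether the 2 libraries of a group came from separate cultures, so each p reflects only how these libraries vary, and that variation may be technical.

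HDACs remove acetyl groups from histones and other proteins, and their inhibitors raise histone acetylation within hours. HDAC3 is a class I enzyme that works in the NCoR and SMRT corepressor complexes and is a target of apicidin together with other class I enzymes. Gelsolin (Gsn) severs and caps actin filaments. TXNIP is an alpha-arrestin that binds thioredoxin and restrains glucose uptake, and its transcription follows glucose through the MondoA and MLX factors. H1f0 encodes the replacement linker histone H1.0, which accumulates in cells that stop dividing. Tubb3 encodes the neuronal class III beta-tubulin, and Clu encodes clusterin, a secreted chaperone.

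The upstream sequences of the genes that rose with apicidin are shown, as the stretch of DNA next to their start sites. RefSeq start sites on GRCm38.p6 were found for 4 of the 5 genes, with 3 starts for Gsn. Each sequence is the 250 bases before a start, on the + strand. Capitals mark 5 motifs searched on both strands: the CCAAT box, the GC box GGGCGG, the E-box CACGTG, the TATA box TATAAA, and the sequence TGGGAA at the core of the RBPJ motif. None of these motifs is contained in another. For Gsn, the start with the most CCAAT matches is printed.
Gsn, chr2:35282130-35282379: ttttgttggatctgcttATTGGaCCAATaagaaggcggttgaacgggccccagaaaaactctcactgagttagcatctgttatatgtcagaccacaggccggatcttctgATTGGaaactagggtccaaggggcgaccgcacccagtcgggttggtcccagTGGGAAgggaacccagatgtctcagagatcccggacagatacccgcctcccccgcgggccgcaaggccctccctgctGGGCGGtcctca
Txnip, chr3:96557707-96557956: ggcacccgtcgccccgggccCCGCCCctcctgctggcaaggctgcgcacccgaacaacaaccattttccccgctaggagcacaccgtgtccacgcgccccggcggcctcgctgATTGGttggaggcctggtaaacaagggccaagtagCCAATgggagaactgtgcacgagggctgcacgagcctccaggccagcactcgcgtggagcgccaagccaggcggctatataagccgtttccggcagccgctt
H1f0, chr15:79027962-79028211: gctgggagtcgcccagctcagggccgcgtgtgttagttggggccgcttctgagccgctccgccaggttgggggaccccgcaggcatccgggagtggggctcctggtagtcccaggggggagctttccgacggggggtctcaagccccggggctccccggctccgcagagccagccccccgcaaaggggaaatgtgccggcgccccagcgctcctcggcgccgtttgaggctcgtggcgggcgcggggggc
Tubb3, chr8:123411303-123411552: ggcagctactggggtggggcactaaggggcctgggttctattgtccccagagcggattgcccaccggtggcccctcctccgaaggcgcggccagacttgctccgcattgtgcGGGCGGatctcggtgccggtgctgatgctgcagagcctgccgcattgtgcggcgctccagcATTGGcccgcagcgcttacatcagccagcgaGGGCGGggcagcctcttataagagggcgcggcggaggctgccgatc
The printed Gsn window held 3 CCAAT matches, 1 GGGCGG and 1 TGGGAA, the last beginning 89 bases before the start. The first Gsn start, with its window at chr2:35256109-35256358, also held 1 TGGGAA, and the second, at chr2:35266494-35266743, held none. The Txnip window held 2 CCAAT and 1 GGGCGG, and the Tubb3 window 1 CCAAT and 2 GGGCGG. None of the motifs lay in the H1f0 window, whose GC content of 74.4% compares with a median of 52.4% over all windows. Among all 32817 windows of this length, 33.8% held CCAAT, 32.7% GGGCGG, 21.6% TGGGAA, 12.4% TATAAA and 6.02% CACGTG. The exact sequences CACGTG and TATAAA were in none of the 6 windows. Variants of the E-box and the TATA box were not searched, so these windows may hold such elements. The gene starts in GENCODE M21, used for exon lengths, are at 96557957 for Txnip, directly after its window, and at 35256380 for Gsn. The Gsn gene start lies shortly after the window of the first RefSeq start. The printed Gsn window, at a later RefSeq start, lies inside the Gsn gene, which ends at 35307892. The GENCODE starts also differ from RefSeq for H1f0, at 79028450, downstream of the printed window, and for Tubb3, at 123411424, inside the printed window. By that annotation part of the Tubb3 sequence lies within the gene and the H1f0 sequence does not adjoin the start. A match is a description of the letters and not evidence of binding.

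The libraries held 21766984 to 29652001 gene reads each in the apicidin experiment, 24673559 to 29004315 in the hairpin experiment and 37237080 to 42815304 in the DAPT experiment. Values are normalized reads, scaled by the authors within each experiment. A gene was called when its adjusted p was under 0.05 in limma, with Benjamini-Hochberg adjustment over all genes tested, and log2 fold changes are treated over control ± SE. Hdac3 itself stood at 774 and 819 normalized reads in the shHdac3 libraries, against 2012 and 1930 in the scrambled libraries, a log2 fold change of -1.31 ± 0.05. All 10 pre-T markers examined, among them Ptcra and Cd3e, had a value of 10 or more in both libraries of every group. Their summed level was 64064 to 64210 normalized reads with apicidin, against 91282 to 91505 with DMSO, 73141 to 74654 with shHdac3, against 97341 to 97659.9 with the scrambled hairpin, and 113780.1 to 115692 with DAPT, against 142406 to 145899.9 with DMSO. Of 5 B cell markers, Ms4a1 and Pax5 were listed at 0 in every library and the summed level was at most 23.5.

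Apicidin raised 4 of the 5 marker genes, by 1.31-fold to 1.82-fold, and Clu did not pass. Across the transcriptome, 38.1% of 12463 tested genes were called, 18.2% higher and 19.9% lower. Gsn stood at 7703 and 7426 in the apicidin libraries, against 4198 and 4124 in the DMSO libraries. Both apicidin libraries lay far above both controls, and the change was 0.86 ± 0.04 (adjusted p = 4.6e-11). Txnip had 21342 and 21115 with apicidin, against 12453 and 12444 with DMSO (0.77 ± 0.04, adjusted p = 6.2e-10). Its replicates lay close together while the groups differed 1.71-fold. H1f0 had 20221 and 20666 with apicidin, against 12769 and 13563 with DMSO (0.64 ± 0.05, adjusted p = 1.5e-08). Tubb3 had 505 and 536 with apicidin, against 359 and 440 with DMSO (0.39 ± 0.09, adjusted p = 0.0026). Here the DMSO libraries were further apart than for the other 3 rising genes, and without DMSO replicate 1 the change was 0.24 (adjusted p = 0.030). In bulk libraries such as these, a change in the number of cells that express a gene and a change in RNA per cell cannot be told apart. Clu was close to the detection limit, with 4.38 and 10.00 normalized reads under apicidin (4 and 11 reads) and 15.9 and 14.1 under DMSO (14 and 16 reads). Both apicidin values were the lower ones, at -1.05 ± 0.44 (adjusted p = 0.070), and without apicidin replicate 2 the gene passed (-1.57, adjusted p = 0.023).

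Knockdown of Hdac3 lowered Txnip, Gsn, H1f0 and Clu and raised Tubb3. In this comparison 41.9% of 12482 tested genes were called, 19.4% lower and 22.5% higher. With upper-quartile factors the balance turned, with 2913 lower and 2312 higher, against 2417 lower and 2811 higher. Txnip had 5603 and 5652 normalized reads in the shHdac3 libraries, against 11286 and 11933 in the scrambled libraries, 2.06-fold less (-1.04 ± 0.05, adjusted p = 2.3e-24). It ranked 313th among the falls. Gsn had 3610 and 3741 in the shHdac3 libraries, against 4691 and 4770 in the scrambled libraries (-0.36 ± 0.04, adjusted p = 3.6e-09). H1f0 fell least, with 8947 and 8826 in the knockdown and 10135 and 10151 in the control (-0.19 ± 0.04, adjusted p = 5.0e-04). Its replicates lay closer together than the groups did. Clu was cut to 41.1 and 39.6 by the knockdown, against 187 and 181 in scrambled cells, a 4.47-fold reduction (-2.16 ± 0.17, adjusted p = 2.0e-14). This was the 17th most negative change among all tested genes. Tubb3 rose to 494 and 463 in knockdown cells, against 365 and 339.9 in scrambled cells (0.44 ± 0.08, adjusted p = 3.1e-05). In none of the 5 genes did the shHdac3 and scrambled libraries overlap. The share of all tested genes without such overlap was not counted, so this does not set the 5 apart.

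DAPT raised Gsn, Txnip, H1f0 and Tubb3 and lowered Clu, where 43.2% of 12840 tested genes were called, 20.1% higher and 23.1% lower. With upper-quartile factors the balance turned here too, with 3056 higher and 2499 lower, against 2584 higher and 2962 lower. Gsn rose most of the 5, with 6634 and 6451 normalized reads under DAPT, against 2377 and 2335 under DMSO. This 2.78-fold rise (1.47 ± 0.04, adjusted p = 2.6e-18) was the 53rd largest of all tested genes. Txnip had 26773 and 27239 with DAPT, against 18012 and 18324 with DMSO (0.57 ± 0.04, adjusted p = 1.3e-11). H1f0 had 23831 and 23366 with DAPT, against 16346 and 16069 with DMSO (0.54 ± 0.04, adjusted p = 3.1e-11). Tubb3 had 871 and 883 with DAPT, against 637 and 600 with DMSO (0.50 ± 0.06, adjusted p = 1.1e-06). In these 4 genes each DAPT library was above each DMSO library, and the share of all tested genes with such separation was not counted. Clu had 90.9 and 72.2 with DAPT, against 256 and 216 with DMSO, a 2.89-fold reduction (-1.53 ± 0.15, adjusted p = 1.2e-08).

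**Figure D1:**
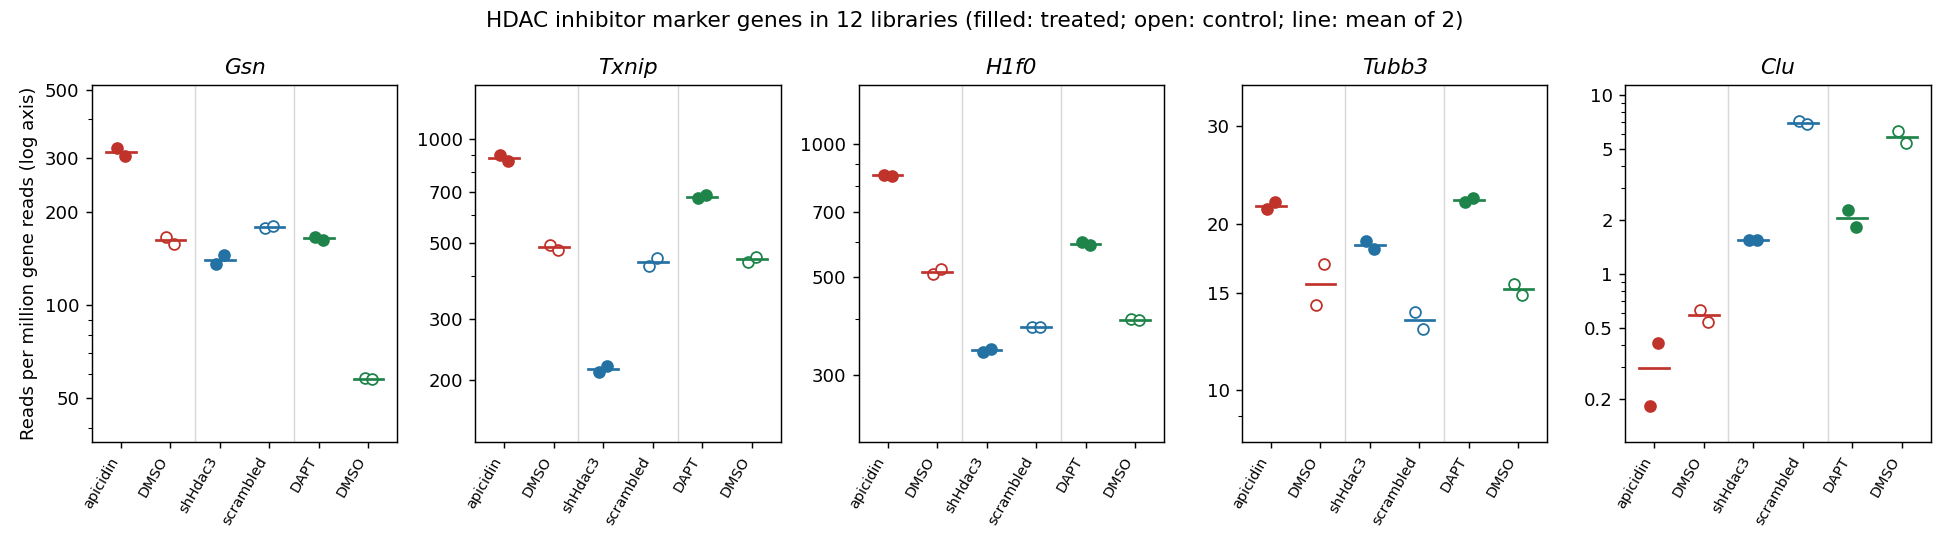
Level in RPM (reads per 1000000 gene reads of a library, log axis, a different range in each panel) of the 5 genes, with 1 point per library, filled for treated and open for control, and a line at the mean of 2. Gsn, Txnip, H1f0 and Tubb3 are above their DMSO controls with apicidin and with DAPT, Txnip with shHdac3 lies at 211 and 220, below its scrambled libraries at 428 and 453, and Clu spans the widest range.

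**Figure D2:**
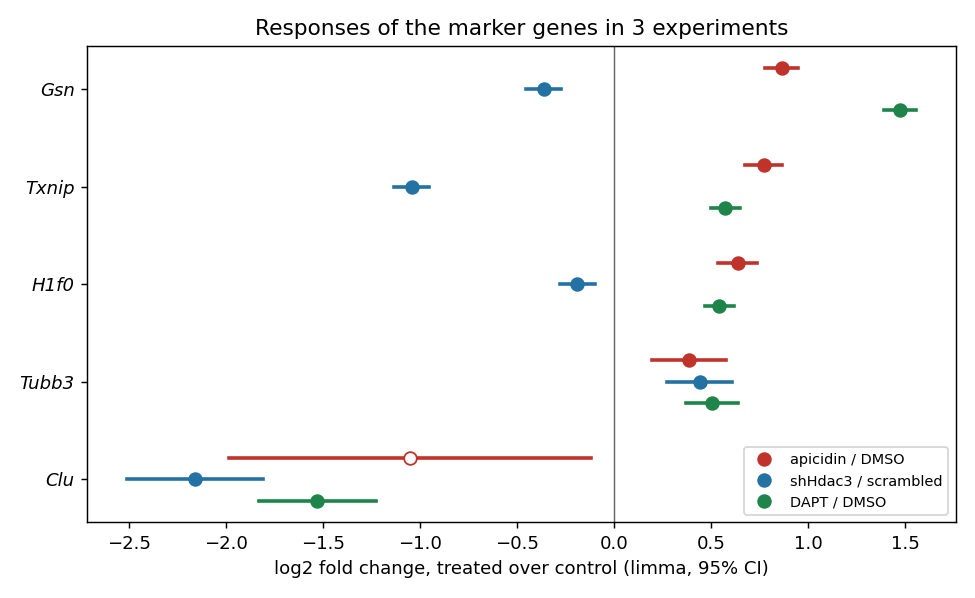
Log2 fold change of each gene, treated over control, with its 95% confidence interval from limma. Filled points passed an adjusted p of 0.05, and the open point (Clu with apicidin) did not; for Gsn, Txnip and H1f0 the shHdac3 points lie left of 0 and the apicidin and DAPT points right of it.

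The directions split the genes into 3 patterns. Gsn, Txnip and H1f0 were higher with apicidin, lower with shHdac3 and higher with DAPT, a combination held by 154 of the 12204 genes tested in all 3 experiments (1.26%). Tubb3 was higher in all 3, as were 287 genes (2.35%). Clu was lower with shHdac3 and DAPT and did not pass with apicidin, like 152 genes (1.25%), while 275 genes (2.25%) were lower in all 3. No control libraries are shared between the experiments.

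The responses to the drug and to the knockdown were compared as a difference of log2 fold changes, in limma over all 12 libraries. Each treatment was its own experiment. The knockdown also differed from both drugs in delivery and in time, at 96 h after puromycin against 24 h of drug. In any such difference these cannot be told apart from the treatment itself. For apicidin minus shHdac3, 36.2% of 12233 genes passed, 15.9% with a positive and 20.3% with a negative difference. The Txnip difference was 1.81 ± 0.05 (adjusted p = 4.3e-17), which is a 3.52-fold gap between the responses. Gsn differed by 1.23 ± 0.05 (adjusted p = 5.5e-14) and H1f0 by 0.83 ± 0.06 (adjusted p = 8.5e-11). In these 3 genes the gap comes from changes of opposite sign. The Clu difference of 1.11 ± 0.36 (adjusted p = 0.020) was lost without apicidin replicate 2 (0.59, adjusted p = 0.16) and without scrambled replicate 1 (1.08, adjusted p = 0.056). It was also lost in edgeR on recovered reads (1.21, adjusted p = 0.077). Without apicidin replicate 1 it was 1.62 (adjusted p = 3.5e-04), over a change that rests on few reads. Tubb3 did not differ past the threshold, at -0.05 with a 95% confidence interval of -0.30 to 0.19.

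The DAPT and apicidin responses were compared in the same way. For DAPT minus apicidin, 36.6% of 12379 genes passed, 17.6% with a positive and 18.9% with a negative difference. Gsn rose more with DAPT, by 0.61 ± 0.05 (adjusted p = 6.6e-09), and Txnip rose less, by -0.20 ± 0.05 (adjusted p = 0.0060). H1f0 did not pass at -0.09 (interval -0.21 to 0.02), nor did Tubb3 at 0.12 (-0.13 to 0.36) or Clu at -0.48 (-1.22 to 0.27). The Clu value depended on single libraries: it passed without apicidin replicate 1 (-0.99, adjusted p = 0.015) and changed sign without apicidin replicate 2 (0.041, adjusted p = 0.94).

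For DAPT minus shHdac3, 46.3% of 12388 genes passed, 21.5% with a positive and 24.8% with a negative difference. Gsn differed by 1.84 ± 0.05 (adjusted p = 1.2e-17), Txnip by 1.62 ± 0.05 (adjusted p = 1.2e-16) and H1f0 by 0.73 ± 0.06 (adjusted p = 2.0e-10). Tubb3 was at 0.06 (interval -0.18 to 0.31). Clu was at 0.63 (-0.12 to 1.38, adjusted p = 0.16), and in edgeR it passed at 0.63 (adjusted p = 0.037). The limma interval rests on a spread shared by all 12 libraries, including those of the apicidin experiment, where Clu had few reads. Within single experiments the SE of the Clu change was 0.15 with DAPT, 0.17 with shHdac3 and 0.44 with apicidin. Tubb3 was thus the only one of the 5 genes whose differences passed in none of the 3 pairings, and the intervals together ran from -0.30 to 0.36 in log2.

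**Figure D3:**
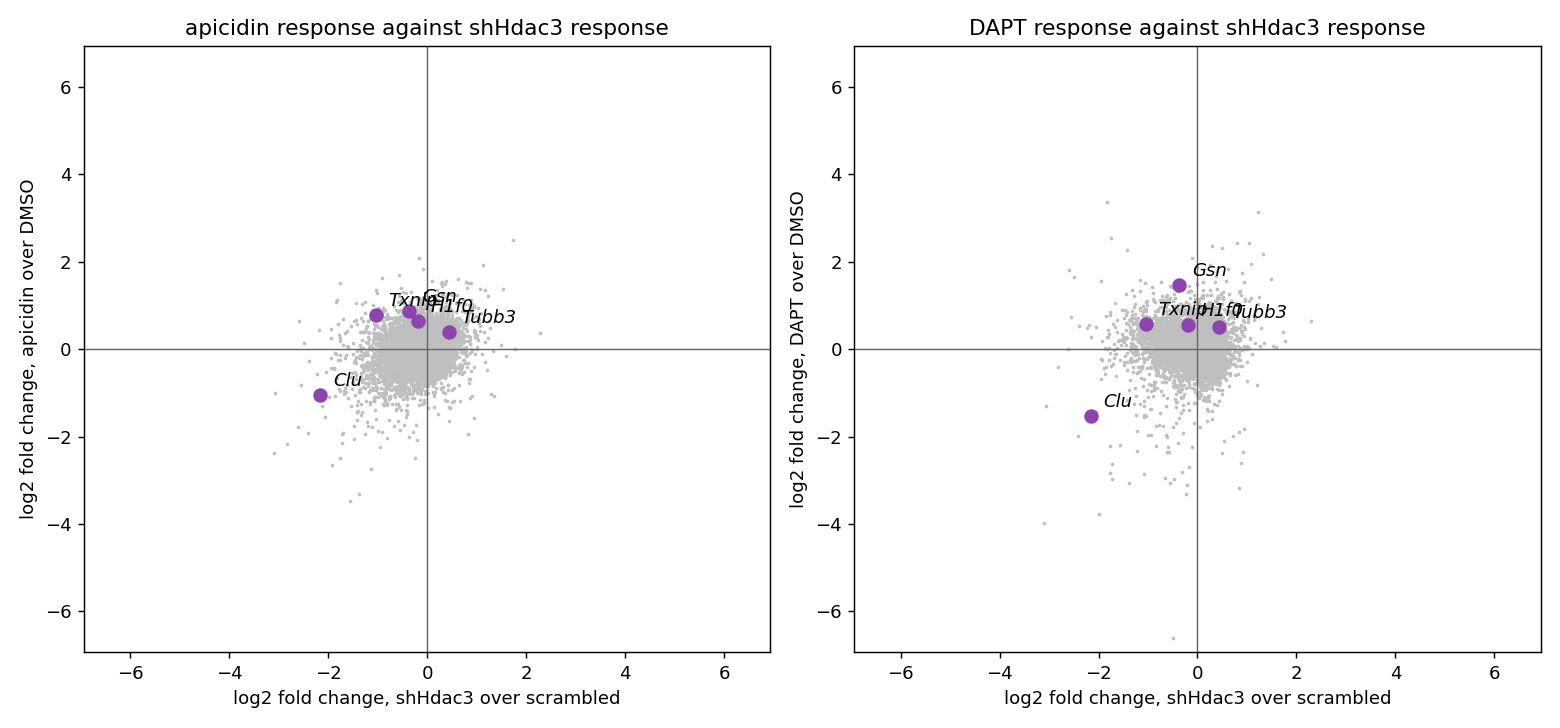
Log2 fold changes of the 12204 genes tested in all 3 experiments (grey) and of the 5 marker genes (purple), with the shHdac3 response on the horizontal axis and the apicidin (left) or DAPT (right) response on the vertical axis. Txnip, Gsn and H1f0 lie in the upper left quadrant of both panels, Tubb3 in the upper right and Clu in the lower left.

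Levels were also expressed in RPM, the recovered reads of a gene per 1000000 gene reads of its library, to set the 6 groups side by side as a description. Txnip was at 880 ± 22.5 with apicidin, 680 ± 10.6 with DAPT and 216 ± 5.74 with shHdac3 (SD, n = 2 each). Its controls were alike, at 486 ± 11.8 and 447 ± 9.03 in the DMSO groups of the apicidin and DAPT experiments and 440 ± 17.5 in the scrambled group, and the last pair overlapped. H1f0 was at 847 ± 2.23 with apicidin, 594 ± 6.24 with DAPT and 340 ± 3.68 with shHdac3. Its controls stood at 513 ± 9.70 and 399 ± 1.61 in the DMSO groups of the apicidin and DAPT experiments and 385 ± 0.583 in the scrambled group. No 2 neighbouring groups of H1f0 overlapped. Tubb3 was at 22.1 ± 0.279 with DAPT and 21.6 ± 0.496 with apicidin, which overlapped, and 18.3 ± 0.451 with shHdac3. Its controls were between 12.9 and 16.9 in all 6 libraries.

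Gsn and Clu had unlike levels in the control groups of the experiments. Gsn RPM values were 314 ± 13.8 with apicidin, 141 ± 6.43 with shHdac3 and 165 ± 2.70 with DAPT. In the matching controls they were 162 ± 5.92, 179 ± 2.19 and 58.0 ± 0.268, a 3.09-fold range. The DAPT libraries (167 and 163) overlapped the DMSO libraries of the apicidin experiment (167 and 158), so Gsn after DAPT was at the level that another DMSO group already had. Clu was at 0.297 ± 0.160 with apicidin, 1.55 ± 0.00889 with shHdac3 and 2.05 ± 0.326 with DAPT. Its controls were at 0.585 ± 0.0647, 6.97 ± 0.157 and 5.82 ± 0.652, an 11.9-fold range. The lowered Clu levels after shHdac3 and DAPT were thus still above the DMSO level of the apicidin experiment. Over the same controls Txnip ranged 1.10-fold, Tubb3 1.16-fold and H1f0 1.33-fold. The experiments cannot be told apart from their library preparation, so these gaps between controls have no test.

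Per kilobase of annotated exon, in RPM, H1f0 had the highest level of the 5 genes in the DMSO libraries of the apicidin experiment, at 249.9 ± 4.72. Txnip followed at 156 ± 3.78, Gsn at 51.4 ± 1.87, Tubb3 at 7.63 and 9.04 and Clu at 0.170 ± 0.0188 (SD, n = 2). Of the exonic bases of Txnip, 19.4% overlap Gm15441 on the opposite strand, and of H1f0 7.93% overlap Gm49544, in GENCODE M21. Whether counting used strand is not given. Gm15441 had 16.5 to 82.3 normalized reads per library, against 5603 to 27239 for Txnip. Gsn, Clu and Tubb3 overlap no other annotated exon. Tubb3 resembles other beta-tubulin genes, so shared reads could have been assigned between them.

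The relatives of Txnip went both ways. Among the alpha-arrestins, the family TXNIP belongs to, 2 of 4 tested genes were higher and 2 lower with apicidin, 0 higher and 4 lower with shHdac3, and 2 of 5 higher and 0 lower with DAPT, Txnip included. Arrdc3, an adaptor in receptor trafficking, was at -0.35 ± 0.05 with apicidin, -0.48 ± 0.06 with shHdac3 and 0.67 ± 0.04 with DAPT, and passed in each. The genes of the list had a median log2 fold change of -0.08 with apicidin, -0.35 with shHdac3 and 0.57 with DAPT. The DAPT median is the value of Txnip itself, and of its relatives only Arrdc3 passed with DAPT. Over all tested genes the median was within 0.002 of 0 in each experiment. The shares of all tested genes called were 18.2% higher and 19.9% lower with apicidin, and 22.5% higher and 19.4% lower with shHdac3. With DAPT they were 20.1% higher and 23.1% lower, and the counts of every list stand beside these shares. Arrdc1 was lower with apicidin (-0.40 ± 0.08). In DESeq2, 1 was higher with apicidin and 2 lower with shHdac3, and with upper-quartile factors 4 were higher with DAPT. The list counts were sensitive to single libraries: with shHdac3, 2 were lower without scrambled replicate 2 or shHdac3 replicate 2. With apicidin, 1 was higher without DMSO replicate 1 or apicidin replicate 2, and with DAPT 4 were higher without DMSO replicate 1. Arrdc4, another glucose-responsive target of MondoA, was listed at 0 in the apicidin and hairpin experiments.

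Several glucose uptake and glycolysis genes were called in each experiment. Over all tested genes, 38.1% were called with apicidin, 41.9% with shHdac3 and 43.2% with DAPT. Of 7 tested genes on the MondoA/ChREBP list, 4 were higher, 0 lower and 3 did not pass with apicidin, the higher ones being Hk2 (0.78 ± 0.04), Slc2a3 (0.64 ± 0.05), Slc2a1 (0.58 ± 0.05) and Txnip itself. With shHdac3, 0 were higher, 5 lower and 2 did not pass. The falls included the glucose transporter gene Slc2a1 (-0.87 ± 0.06), Pfkfb3 (-0.66 ± 0.06), a regulator of glycolysis, and the hexokinase gene Hk2 (-0.50 ± 0.06). With DAPT, Txnip was the 1 gene higher, 2 did not pass and 4 were lower, among them Hk2 (-0.49 ± 0.04), Slc2a1 (-0.33 ± 0.04) and Pfkfb3 (-0.28 ± 0.04). With apicidin the median log2 fold change of the list was 0.58, with shHdac3 -0.50 and with DAPT -0.22. Mlxip, which encodes MondoA, passed in none of the 3 comparisons.

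In the thioredoxin system, 3 of 12 tested genes were higher and 4 lower with apicidin, 3 higher and 6 lower with shHdac3, and 3 higher and 8 lower with DAPT, Txnip included. The list's median log2 fold change was -0.08 with apicidin, -0.25 with shHdac3 and -0.24 with DAPT. Ddit4, a stress-induced inhibitor of mTORC1 whose product can bind TXNIP, shared the directions of Txnip, at 0.28 ± 0.04 with apicidin, -1.19 ± 0.05 with shHdac3 and 0.18 ± 0.04 with DAPT. The peroxiredoxin gene Prdx2 was lower with apicidin (-0.58 ± 0.05) and with shHdac3 (-0.32 ± 0.05). With DAPT, the thioredoxin gene Txn1 was at -0.25 ± 0.04, Prdx1 at -0.34 ± 0.04 and Prdx3 at -0.47 ± 0.04. The count of higher genes with shHdac3 fell to 1 without scrambled replicate 2 or shHdac3 replicate 1.

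With apicidin H1f0 passed and the replication-dependent linker histone genes did not. Of 7 tested linker histone genes, 2 were higher and 0 lower with apicidin, 1 higher and 2 lower with shHdac3, and 6 higher and 0 lower with DAPT, H1f0 included. The genes of the list had a median log2 fold change of -0.02 with apicidin, -0.09 with shHdac3 and 0.21 with DAPT. Hist1h1t, the testis linker histone gene, was the other one to rise with apicidin, at 118 and 105 normalized reads, against 30.7 and 30.8 with DMSO (1.83 ± 0.20). Hist1h1a to Hist1h1e were between -0.17 and 0.09 with apicidin and none passed. With DAPT they were between 0.13 and 0.22, smaller than the 0.54 of H1f0, and without DAPT replicate 1 the count of higher linker histones was 2. Without DMSO replicate 1, 2 were lower with apicidin, and in DESeq2 1 was. With shHdac3, 0 were higher without scrambled replicate 1 or shHdac3 replicate 1, and 1 was lower without scrambled replicate 2 or shHdac3 replicate 2.

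Tubb3 shared its rises with shHdac3 and DAPT, but not with apicidin, with a pair of related beta-tubulin genes. Of 7 tested beta-tubulin genes, 1 was higher and 2 lower with apicidin, 3 higher and 0 lower with shHdac3, and 3 higher and 0 lower with DAPT. With apicidin the median log2 fold change of the list was -0.18, with shHdac3 0.09 and with DAPT 0.38. Tubb2a (0.50 ± 0.05) and Tubb2b (0.35 ± 0.04) rose with shHdac3, and rose with DAPT (0.40 ± 0.04 and 0.38 ± 0.04). With apicidin they were at 0.08 ± 0.04 and 0.08 ± 0.04 and did not pass, while the abundant genes Tubb5 (-0.32 ± 0.06) and Tubb4b (-0.25 ± 0.04) fell. Without DMSO replicate 2, 1 beta-tubulin gene was lower with DAPT. Tuba8, an alpha-tubulin gene, rose in all 3 experiments, by 0.93 ± 0.07 with apicidin, 0.38 ± 0.07 with shHdac3 and 1.10 ± 0.07 with DAPT.

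**Figure D4:**
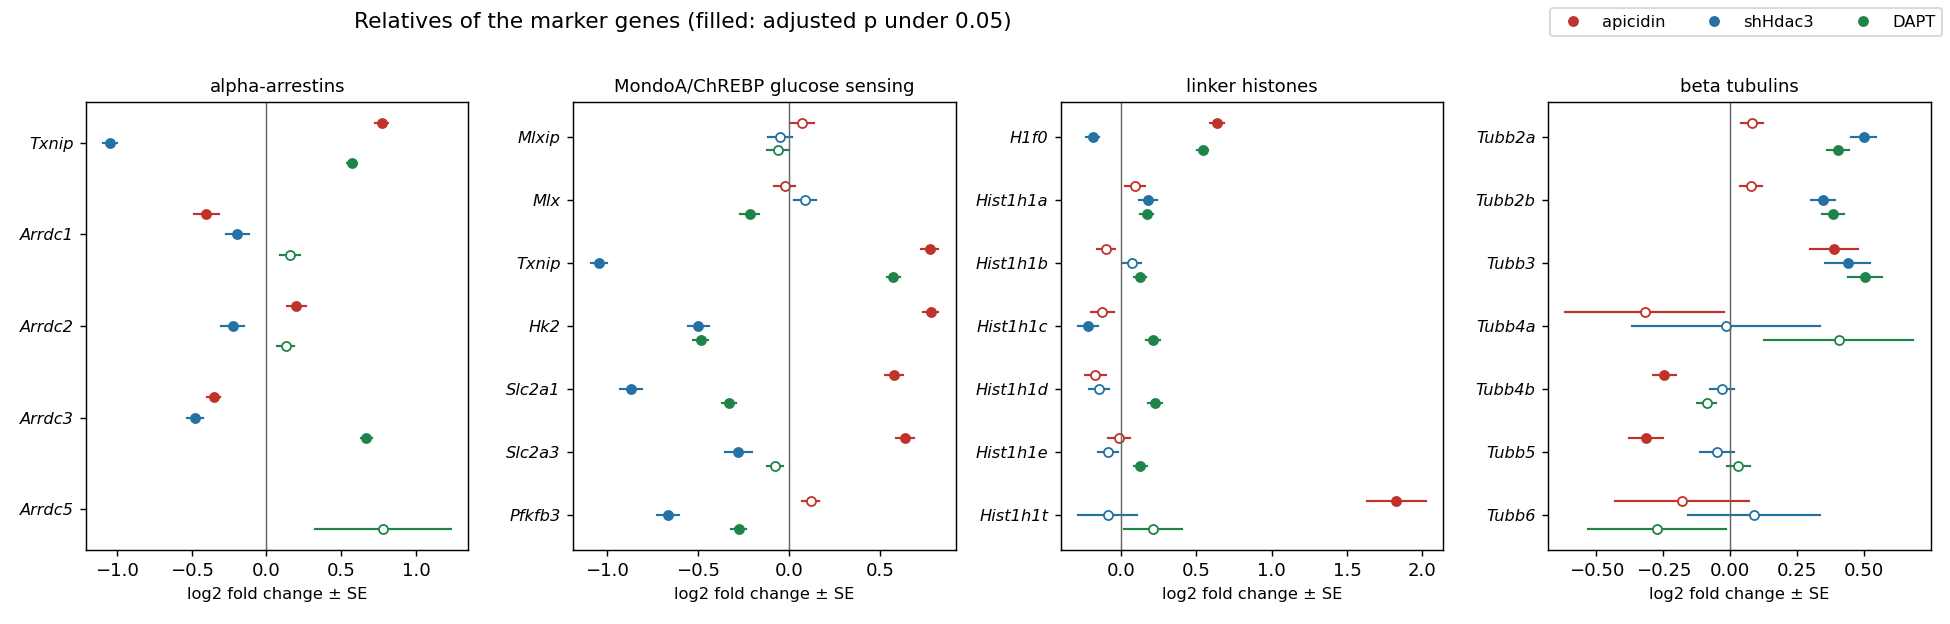
Log2 fold change ± SE for the tested genes of 4 lists in the 3 experiments, filled where the adjusted p was under 0.05. Txnip, H1f0 and Tubb3 appear beside their relatives: Hk2, Slc2a1 and Slc2a3 lie right of 0 with apicidin, and Hist1h1t at 1.83 is the largest change shown.

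Among neuronal genes known to be repressed by REST, only Tubb3 passed as higher with apicidin or shHdac3. The list held 22 genes, including Rest itself and the cofactor genes Rcor1 and Rcor2. In each experiment most of the list was too low to be tested, so those genes could not pass. Of 10 tested genes on that list, 1 was higher (Tubb3) and 1 lower (Rest itself, -0.19 ± 0.04) with apicidin. With shHdac3, 1 of 8 was higher, again Tubb3, and 3 were lower, including the synaptic gene Unc13a (-1.49 ± 0.18) and Rest (-0.16 ± 0.05). With DAPT 4 of 10 were higher and 0 lower, and 2 were higher in DESeq2 and without DAPT replicate 1 or DMSO replicate 2. The list's median log2 fold change was 0.10 with apicidin, -0.09 with shHdac3 and 0.14 with DAPT. Neuronal cell markers (Rbfox3, Map2, Dcx, Elavl3 and Elavl4) summed to 117 to 120 normalized reads with apicidin, against 80.7 to 98.5 with DMSO. The sums were 101 to 107 with shHdac3, against 94.9 to 97.2 with the scrambled hairpin. With DAPT they were 95.3 to 106, against 128 to 130 with DMSO. The sums were thus higher, like Tubb3, with apicidin and shHdac3, and moved against Tubb3 with DAPT. Of the 5 markers, 2 or 3 had a value of 10 or more in both libraries of a group. Map2 was listed at 0 in both libraries of every group but shHdac3.

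Among the actin regulators, Gsn was joined by the actin-sequestering thymosin gene Tmsb4x with both drugs. Of 17 tested genes, 3 were higher and 5 lower with apicidin and 5 higher and 1 lower with DAPT, Gsn included, and of 15 tested with shHdac3, 5 were higher and 6 lower. The genes of the list had a median log2 fold change of -0.03 with apicidin, -0.12 with shHdac3 and 0.12 with DAPT. Tmsb4x was at 0.73 ± 0.04 with apicidin, 0.43 ± 0.05 with shHdac3 and 0.72 ± 0.04 with DAPT. The gelsolin family member Flii was at -0.21 ± 0.04 with apicidin and 0.16 ± 0.04 with DAPT. In DESeq2, 1 was lower with apicidin and 2 with shHdac3. Single libraries moved these counts: with apicidin 2 were lower without DMSO replicate 1 or apicidin replicate 2, and with DAPT 0 were lower without DAPT replicate 1 and 2 without DMSO replicate 1. With shHdac3, 1 was higher without shHdac3 replicate 1, 3 were higher without scrambled replicate 2, and 2 were lower without scrambled replicate 1.

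Other genes known to respond to HDAC inhibitors did not all move like the marker genes. Of 10 tested, 3 were higher and 4 lower with apicidin, 3 higher and 5 lower with shHdac3, and 6 higher and 1 lower with DAPT. With apicidin the median log2 fold change of the list was -0.08, with shHdac3 -0.21 and with DAPT 0.26. The list sets no direction for its genes, so these counts and this median do not measure how far a known response was followed. Cdkn1a, the cyclin-dependent kinase inhibitor p21, stood at 363 ± 26.3 normalized reads with apicidin, against 613 ± 19.0 with DMSO (-0.76 ± 0.08), and fell with shHdac3 as well (-1.50 ± 0.08). The histone gene Hist2h2be rose with apicidin (0.35 ± 0.06) and DAPT (0.37 ± 0.06). Ctps, which encodes a CTP synthase, fell with apicidin (-0.33 ± 0.05) and DAPT (-0.45 ± 0.04). Cdkn1c had the largest change of the list with apicidin, a fall (-0.99 ± 0.19), and passed as higher with DAPT. In DESeq2, 1 was higher with apicidin, and 1 was higher and 2 lower with shHdac3, and with upper-quartile factors 1 was higher with shHdac3. Without apicidin replicate 1, 1 gene was higher with apicidin. With shHdac3, 1 was higher without scrambled replicate 2, and 3 were lower without scrambled replicate 1, shHdac3 replicate 1 or shHdac3 replicate 2.

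Markers of other cell types were also summed, as Gsn and Clu are also expressed outside the lymphoid lineage. Of 6 stromal markers, 2 or 3 had a value of 10 or more in both libraries of a group and Dcn or Col3a1 was listed at 0 in every group. Their sum was 1894 to 1929 with apicidin, against 1460 to 1461 with DMSO, and 1989 to 2011 with shHdac3, against 1222 to 1230 with the scrambled hairpin. With DAPT it was 1102 to 1161, against 1201 to 1213 with DMSO. Of 6 myeloid markers, 1 had such a value in each group, and the sum was 751 to 799 with apicidin, against 509 to 535 with DMSO. It was 466 to 531 with DAPT, against 240.1 to 246 with DMSO, and 368 to 396 with shHdac3, against 368 to 392 with the scrambled hairpin. Cd14 or Elane was listed at 0 in every group. The myeloid sum was thus higher, like Gsn, with apicidin and DAPT, and the stromal sum with apicidin and shHdac3. The part of these markers, and of the pre-T markers, in the results was not tested.

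For each marker gene the 3 genes nearest in pattern were found over the 12 libraries, as the Euclidean distance of log2 values centred on the controls of each experiment, among 10071 genes. Libraries of an experiment share their controls in this measure, so it is a description. Txnip was nearest to Ly6a (distance 0.20), which encodes the surface antigen Sca-1, then to Frat1 (0.24) and Tcp11l2 (0.42), where the median gene lay at 2.10. Ly6a changed by 0.78 with apicidin, -1.06 with shHdac3 and 0.61 with DAPT, and passed in each. Tubb3 was nearest to Sbk1 (0.15), Coro7 (0.24), which encodes a coronin, and Nrip1 (0.30), a nuclear receptor corepressor, against a median of 1.24. H1f0 was nearest to Pld3 (0.26), Rnf167 (0.27) and Fam210b (0.27), with a median of 1.34. With shHdac3, Rnf167 passed as lower (log2 fold change -0.26), while Pld3 (-0.06) and Fam210b (-0.28) did not pass. Gsn had no comparably close gene: Atp6v0a1 (0.70), a proton pump subunit, Cdh24 (0.72) and Slc9a9 (0.76) came first, with a median of 2.55. Of these, Atp6v0a1 passed as lower with shHdac3 (log2 fold change -0.59), while Cdh24 (0.10) and Slc9a9 (0.07) did not share that fall. Clu was nearest to the sodium channel subunit gene Scn4b (1.2), Gipr (1.6) and Cdh23 (1.62), with a median of 4.13. Among the marker genes, H1f0 was 0.98 from Tubb3, 1.23 from Txnip and 1.38 from Gsn, and Gsn was 1.6 from Txnip.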

How the data were processed

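Per the labels' protocols, total RNA was depleted of ribosomal RNA and made into stranded libraries. The submitters' processing notes name mm9, FastQC, Bowtie2, TopHat and DESeq2 without roles. No counter, annotation or strand setting is given in the sources used here. Each deposited table has 4 libraries and gives, per the file headers, a normalized signal per gene, and the authors' log2 fold change, test score, p-value and adjusted p-value. All deposited signal values were whole reads divided by 1 factor per library (100% within a relative tolerance of 1e-06), so reads were recovered.

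The main test, two-sided, was limma 3.58.1 (R 4.3.3, trended variance) on log2(value + 1) of genes reaching 10 in at least 2 of 4 libraries. The pseudocount of 1 understates changes of low genes. Differences of responses were fitted over all 12 libraries. Alternatives included edgeR (4.0.16) and DESeq2 (1.42.0) on recovered reads. The fit within each experiment was tried on simulated reads with the same dispersion for every gene. The fit of differences was not tried on simulated reads. Lists were compiled from general knowledge, and members and lists were chosen with earlier results of these data known. The 5 genes are named throughout; the rule for each list was up to 4 genes that passed with the largest change. Among list genes, those that passed in every alternative were preferred, and these and the genes set beside them were chosen after their values were seen. Patterns were compared among genes with a mean of 50 or more. Exon lengths and overlaps are from GENCODE M21 (GRCm38), another build than mm9, and upstream sequences from RefSeq (GRCm38.p6). Protein comparisons were not analysed here. Intervals are 95% intervals of the fit.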

Additional observations from a re-analysis of the deposited data

Results flagged for a closer look

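The response of Gsn, Txnip and H1f0 differed between experiments by the test of the difference itself. For Gsn, the difference in log2 fold change was 1.23 for apicidin minus shHdac3, 0.61 for DAPT minus apicidin and 1.84 for DAPT minus shHdac3. For Txnip it was 1.81, -0.20 and 1.62 in the same order. H1f0 differed by 0.83 for apicidin minus shHdac3 and by 0.73 for DAPT minus shHdac3. Clu also passed, at 1.11 for apicidin minus shHdac3 (adjusted p = 0.020), but did not pass once apicidin replicate 2 was left out (0.59, adjusted p = 0.16), without scrambled replicate 1 (1.08, adjusted p = 0.056) or in edgeR (1.21, adjusted p = 0.077).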

How the results depend on the processing

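Of the 5 genes' changes within an experiment, all but 1 of 222 values under the alternatives kept their direction and their side of the threshold. The exception was Clu with apicidin, which ranged from -1.57 to -0.54 when single libraries were left out and passed without apicidin replicate 2. With a filter of 50 it was not tested there, and the authors' deposited table and DESeq2 give it no adjusted p. The number of genes called was 4746 with apicidin, and 2663 in DESeq2 and 2465 in the authors' deposited table; with shHdac3 it was 5228, and 3116 and 2961. Without single libraries the Clu difference for apicidin minus shHdac3 ranged from 0.59 to 1.62, and was 1.21 in edgeR (adjusted p = 0.077). For DAPT minus apicidin it ranged from -0.99 to 0.04, and for DAPT minus shHdac3 it passed in edgeR (0.63, adjusted p = 0.037). The Tubb3 difference ranged from -0.20 to 0.09 for apicidin minus shHdac3 and from -0.03 to 0.26 for DAPT minus apicidin, with the sign turned without DMSO replicate 2 of the apicidin experiment, at 0.095 and at -0.031. The Clu value without apicidin replicate 2 for DAPT minus apicidin was 0.041. The cause was not tested. Replicate numbers did not pair the libraries (correlations of deviations 0.04, 0.01 and 0.02 for apicidin, shHdac3 and DAPT). Adding a replicate block, 4811, 5327 and 5978 genes were called in the same order, against 4746, 5228 and 5546 without it, and no call of the 5 genes changed. Upper-quartile factors turned the balance of higher and lower calls with shHdac3 (44.2% higher, against 53.8%) and DAPT (55.0% higher, against 46.6%). Of 66 counts of list genes, 12 moved by over 1.5 times in DESeq2 and 3 with upper-quartile factors. Clu had 4 to 16 reads per library in the apicidin experiment, so its values there are imprecise.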

Other observations

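Lists around clusterin, the tubulin partners and the HDAC3 complex were small or went both ways. Of the class I HDACs and corepressors, all 9 were tested: 3 were higher and 2 lower with apicidin, 3 higher and 2 lower with shHdac3, and 2 higher and 1 lower with DAPT. The list's median log2 fold change was 0.04 with apicidin, 0.05 with shHdac3 and 0.05 with DAPT. Hdac1 was higher with apicidin (0.32 ± 0.04), and Tbl1xr1, which encodes a subunit of the NCoR complex, was higher in all 3 experiments (0.19 ± 0.04 with apicidin, 0.32 ± 0.04 with shHdac3 and 0.18 ± 0.04 with DAPT). In DESeq2, 0 of this list were lower with apicidin and 1 was higher with DAPT, and with upper-quartile factors 1 was lower with apicidin. With apicidin, 0 of this list were lower without apicidin replicate 1, and 1 without any of the other 3 libraries. With shHdac3, 1 was lower without scrambled replicate 1. With DAPT, 1 was higher without DAPT replicate 1, DAPT replicate 2 or DMSO replicate 1, and 2 were lower without either DMSO replicate.

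Of 13 alpha- and gamma-tubulin and tubulin folding genes, 3 were higher and 7 lower with apicidin, 3 higher and 4 lower with shHdac3, and 3 higher and 6 lower with DAPT. The genes of the list had a median log2 fold change of -0.17 with apicidin, -0.12 with shHdac3 and -0.06 with DAPT. Tuba4a was higher with apicidin (0.43 ± 0.05) and shHdac3 (0.50 ± 0.04). Without apicidin replicate 1, 4 were lower with apicidin, and without scrambled replicate 1, 2 were lower with shHdac3. With DAPT, 1 was higher without either DAPT replicate, and 1 was lower without DAPT replicate 2. Among clusterin receptors, complement genes and chaperones, 5 genes were tested with apicidin (2 higher, 1 lower), 5 with shHdac3 (2 higher, 1 lower) and 6 with DAPT (0 higher, 2 lower), Clu included. With apicidin the median log2 fold change of the list was 0.06, with shHdac3 0.10 and with DAPT -0.03. The chaperone gene Hspa8 was lower with apicidin (-0.32 ± 0.06) and DAPT (-0.24 ± 0.04). The 2 genes higher with apicidin were 1 in DESeq2 and 0 without apicidin replicate 1, and those higher with shHdac3 were 0 without scrambled replicate 1 and 1 without any of the other 3 libraries. Without apicidin replicate 2, 2 of this list were lower with apicidin.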
